A study of Sus scrofa with 599 samples.

Results

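The lipid droplet coat and assembly genes followed here are 8 of the 21280 protein-coding genes (PCGs) in the expression table. They were taken by symbol: the perilipins PLIN2, PLIN3, PLIN4 and PLIN5, the CIDE family members CIDEB and CIDEC, and the endoplasmic reticulum (ER) proteins BSCL2 and FITM2. The choice used no measured value as a rule, but earlier results of these data were known when it was made. Expression was read by RNA-seq and the chromatin compartment of each gene start by in situ Hi-C in 4 adipose tissues (ATs) of adult female Bama miniature pigs of 2 years. The 3 visceral ATs (VATs) are the fat of the greater omentum (GOM), of the mesentery (MAD) and behind the peritoneum (RAD), and the subcutaneous AT is the upper layer of backfat (ULB). The NC pigs ate a normal diet, the WG pigs gained weight on a high-fat diet for 22 weeks, and the WL pigs were then held for 12 weeks at 10% of normal calories. Each library came from bulk tissue of 1 AT of 1 pig, and the labels tell the samples of a group apart by a replicate number alone. For GOM, MAD, RAD and ULB in that order, 9, 12, 12 and 5 NC libraries, 45, 36, 39 and 38 WG libraries and 10 WL libraries each were used, 236 in all. The NC numbers of GOM and ULB are below those the study describes, and the remaining NC libraries of these ATs were not analysed here.

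A lipid droplet is a core of triglyceride and sterol ester under a single layer of phospholipid, and its surface proteins decide which lipases reach the core. Perilipins coat that surface, CIDE proteins pass lipid between touching droplets so that the larger one grows, and seipin and FIT proteins act in the ER membrane where new droplets form. White adipocytes hold 1 very large droplet, whose main perilipin is PLIN1, while macrophages that take up lipid hold many small ones coated by PLIN2. In bulk tissue, fewer cells of a type and less RNA per cell cannot be told apart.

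PLIN4 and PLIN5 are neighbours on chromosome 2 in Sscrofa11.1, on the plus strand at chr2:74318624-74331920 and chr2:74304613-74314314, with 4309 bp between them. PLIN3 lies on the same chromosome at chr2:73970149-73995314 (plus strand), and PLIN2 lies at chr1:203683867-203709277 (plus strand). BSCL2 is at chr2:9052676-9064890 (plus strand) and overlaps GNG3 by 1972 bp on the other strand. CIDEB is at chr7:74982941-74985776 (plus strand) and overlaps LTB4R2 by 871 bp on the other strand. CIDEC is at chr13:66141836-66149801 and FITM2 at chr17:46742662-46745898, both on the minus strand. PLIN2 also overlaps an annotated pseudogene on its own strand by 785 bp, and CIDEC overlaps a lncRNA by 3063 bp. The libraries were stranded and quantified by strand, so partners on the other strand are counted apart, whereas reads that PLIN2 shares with its pseudogene could be split.

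The promoters of the 4 perilipins are shown because PLIN2 and PLIN3 were called higher with weight gain in all 3 VATs and because PLIN4 and PLIN5 differ by AT although they are neighbours. Each runs from 250 bases before to 50 bases after the annotated RefSeq start, 5′ to 3′, and capitals mark matches to a CCAAT box (CCAAT), a GC box (GGGCGG) or a TATA box (TATAAA) on either strand.
PLIN2, chr1:203683617-203683916: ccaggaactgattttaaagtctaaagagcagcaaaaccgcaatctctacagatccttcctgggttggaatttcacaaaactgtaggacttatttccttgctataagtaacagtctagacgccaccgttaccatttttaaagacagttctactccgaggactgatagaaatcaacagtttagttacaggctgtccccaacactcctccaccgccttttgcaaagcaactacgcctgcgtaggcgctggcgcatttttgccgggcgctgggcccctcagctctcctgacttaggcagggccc
PLIN3, chr2:73969899-73970198: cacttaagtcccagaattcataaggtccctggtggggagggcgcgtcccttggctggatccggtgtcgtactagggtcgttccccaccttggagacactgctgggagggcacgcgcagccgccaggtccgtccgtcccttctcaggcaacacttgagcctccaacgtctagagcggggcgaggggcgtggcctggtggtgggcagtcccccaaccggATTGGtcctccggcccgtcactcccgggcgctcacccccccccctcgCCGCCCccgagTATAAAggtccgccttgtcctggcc
PLIN4, chr2:74318374-74318673: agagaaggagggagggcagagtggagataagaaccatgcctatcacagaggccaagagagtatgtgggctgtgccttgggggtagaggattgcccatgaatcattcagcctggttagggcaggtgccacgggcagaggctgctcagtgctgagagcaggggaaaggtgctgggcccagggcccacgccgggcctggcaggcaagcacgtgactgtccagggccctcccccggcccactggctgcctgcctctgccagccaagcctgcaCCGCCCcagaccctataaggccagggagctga
PLIN5, chr2:74304363-74304662: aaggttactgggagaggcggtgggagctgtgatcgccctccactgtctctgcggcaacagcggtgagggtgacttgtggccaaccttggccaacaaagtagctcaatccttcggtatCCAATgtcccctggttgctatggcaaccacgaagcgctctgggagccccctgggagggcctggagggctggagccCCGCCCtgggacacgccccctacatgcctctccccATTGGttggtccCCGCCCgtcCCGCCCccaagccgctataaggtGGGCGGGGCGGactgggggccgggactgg
The PLIN2 window held none of these motifs and had 49% GC, against a median of 61% over 13521 promoters. The PLIN5 window held 5 GC boxes, 2 of them overlapping, and 2 CCAAT boxes. The PLIN3 window held 1 match to each of the 3 motifs, and the PLIN4 window held 1 GC box. A GC box is present in 58.2% of all promoters, a CCAAT box in 35% and a TATA box in 8.93%. The nuclear receptor half-site AGGTCA, found in 13.1% of promoters, and its direct repeat with 1 base between (DR1, 0.0296%) were in none of the 8 member promoters.

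Before the results, 2 features of the libraries have to be given. The first is the share of summed TPM that fell on PCGs, which was under 88% in 40 libraries, among them 7 of 9 in NC GOM, 6 of 12 in NC RAD and 6 of 10 in each of WL GOM and WL MAD. The second is a split on the first principal component of the other PCGs, which held 32.2% of the variance of 13144 genes once the mean of each AT was removed. Between scores of -0.82 and 17.9 no NC or WG library was found, and 94 of these 196 libraries lay below the gap and the others above. In WG, 72 libraries were above it and 86 below, and 42 of the 45 replicate numbers present in several ATs stayed on 1 side. In NC, 30 of 38 libraries were above it, including all 9 of GOM. Of the 40 WL libraries, 2 lay above its midpoint. The labels name nothing that matches this split, and its cause was not tested. Estimated counts on PCGs ran from 3337098 to 22939420 per library, with a median of 16791659.

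BSCL2, which encodes seipin and is mutated in a congenital lipodystrophy, followed this split more closely than any other member. Its level in the 72 WG libraries above the gap ran from 45.3 to 101 TPM with a median of 61.1. In the 86 below the gap it ran from 12.3 to 43.2 TPM with a median of 24.5, so the 2 sets did not overlap. The other PCGs define the 2 sides, and the share of them that separates as fully was not counted. Within groups, Pearson's r between BSCL2 and the component was 0.95 over the 158 WG libraries, given as a description. Between pairs of ATs with the same replicate number in WG, the r of BSCL2 ranged from 0.86 to 0.93. FITM2 moved the same way (r = 0.60 in WG), whereas CIDEC (r = -0.64), PLIN3 (r = -0.68) and PLIN2 (r = -0.62) moved the opposite way. The correlations share libraries and a component computed from the same RNA.

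**Figure D1:**
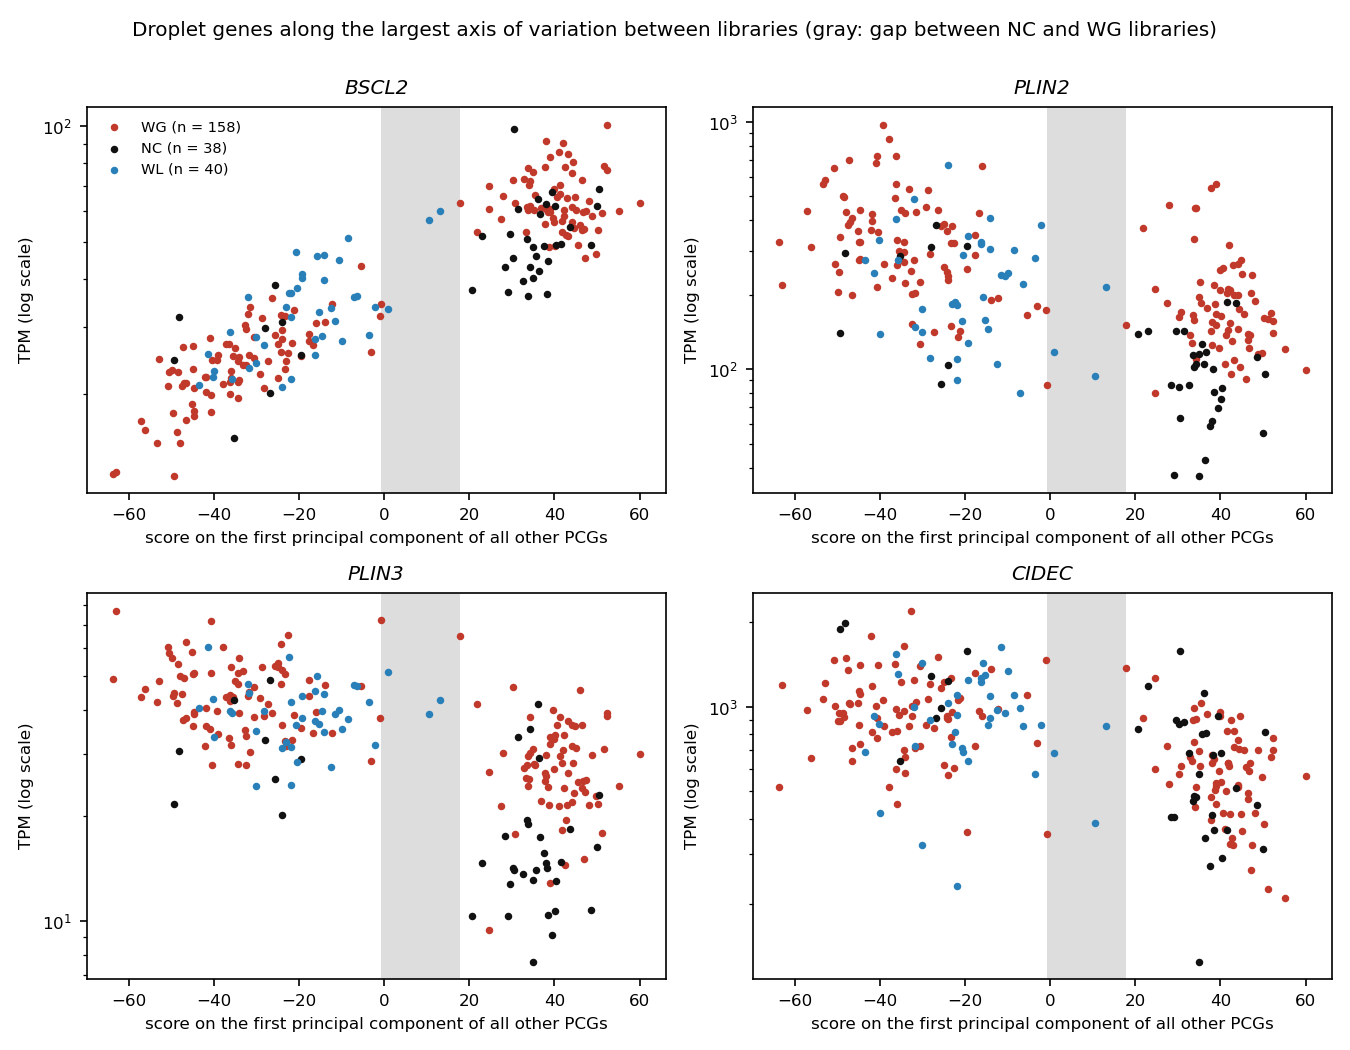
TPM (log scale) of BSCL2, PLIN2, PLIN3 and CIDEC against the score of each of the 236 RNA-seq libraries on the first principal component of all other PCGs, coloured by nutritional group, with the gap between NC and WG libraries in gray. BSCL2 falls into 2 sets at either side of the gap, PLIN2, PLIN3 and CIDEC tend the other way, and the NC libraries lie mainly on the right where PLIN2 and PLIN3 are low.

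The members span a wide range of levels. On the TPM scale, which corrects for length, PLIN4 (mean 957 TPM over all libraries, rank 108 of the PCGs) and CIDEC (835 TPM, rank 130) stood beside PLIN1 (rank 137) among the most expressed genes. PLIN2 followed with 250.2 TPM (rank 471). BSCL2 (41.7 TPM), FITM2 (39.9 TPM), PLIN3 (34.9 TPM) and PLIN5 (26.6 TPM) were lower and held above 0.5 TPM in all 236 libraries. CIDEB, known mainly from hepatocytes, had 1.64 TPM and was at 0 in 2 libraries, with a median of 19.5 estimated counts per library. The 12 groups were ordered by mean, which sets similar means side by side, so small steps do not show a continuum. For 7 members each of the 11 neighbouring pairs of means lay within the larger SD. For PLIN3 this held in 10 of 11, the exception being the step from WG MAD (32.9 ± 11.7 TPM, SD, n = 36) down to NC RAD (19.4 ± 8.78, n = 12), below which only NC GOM and NC MAD followed. The highest group mean was 3.65 times the lowest for PLIN2 (WG RAD over NC GOM) and 3.78 times for PLIN5 (WL GOM over NC ULB), but 1.80 times for BSCL2 and 1.89 times for FITM2.

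**Figure D2:**
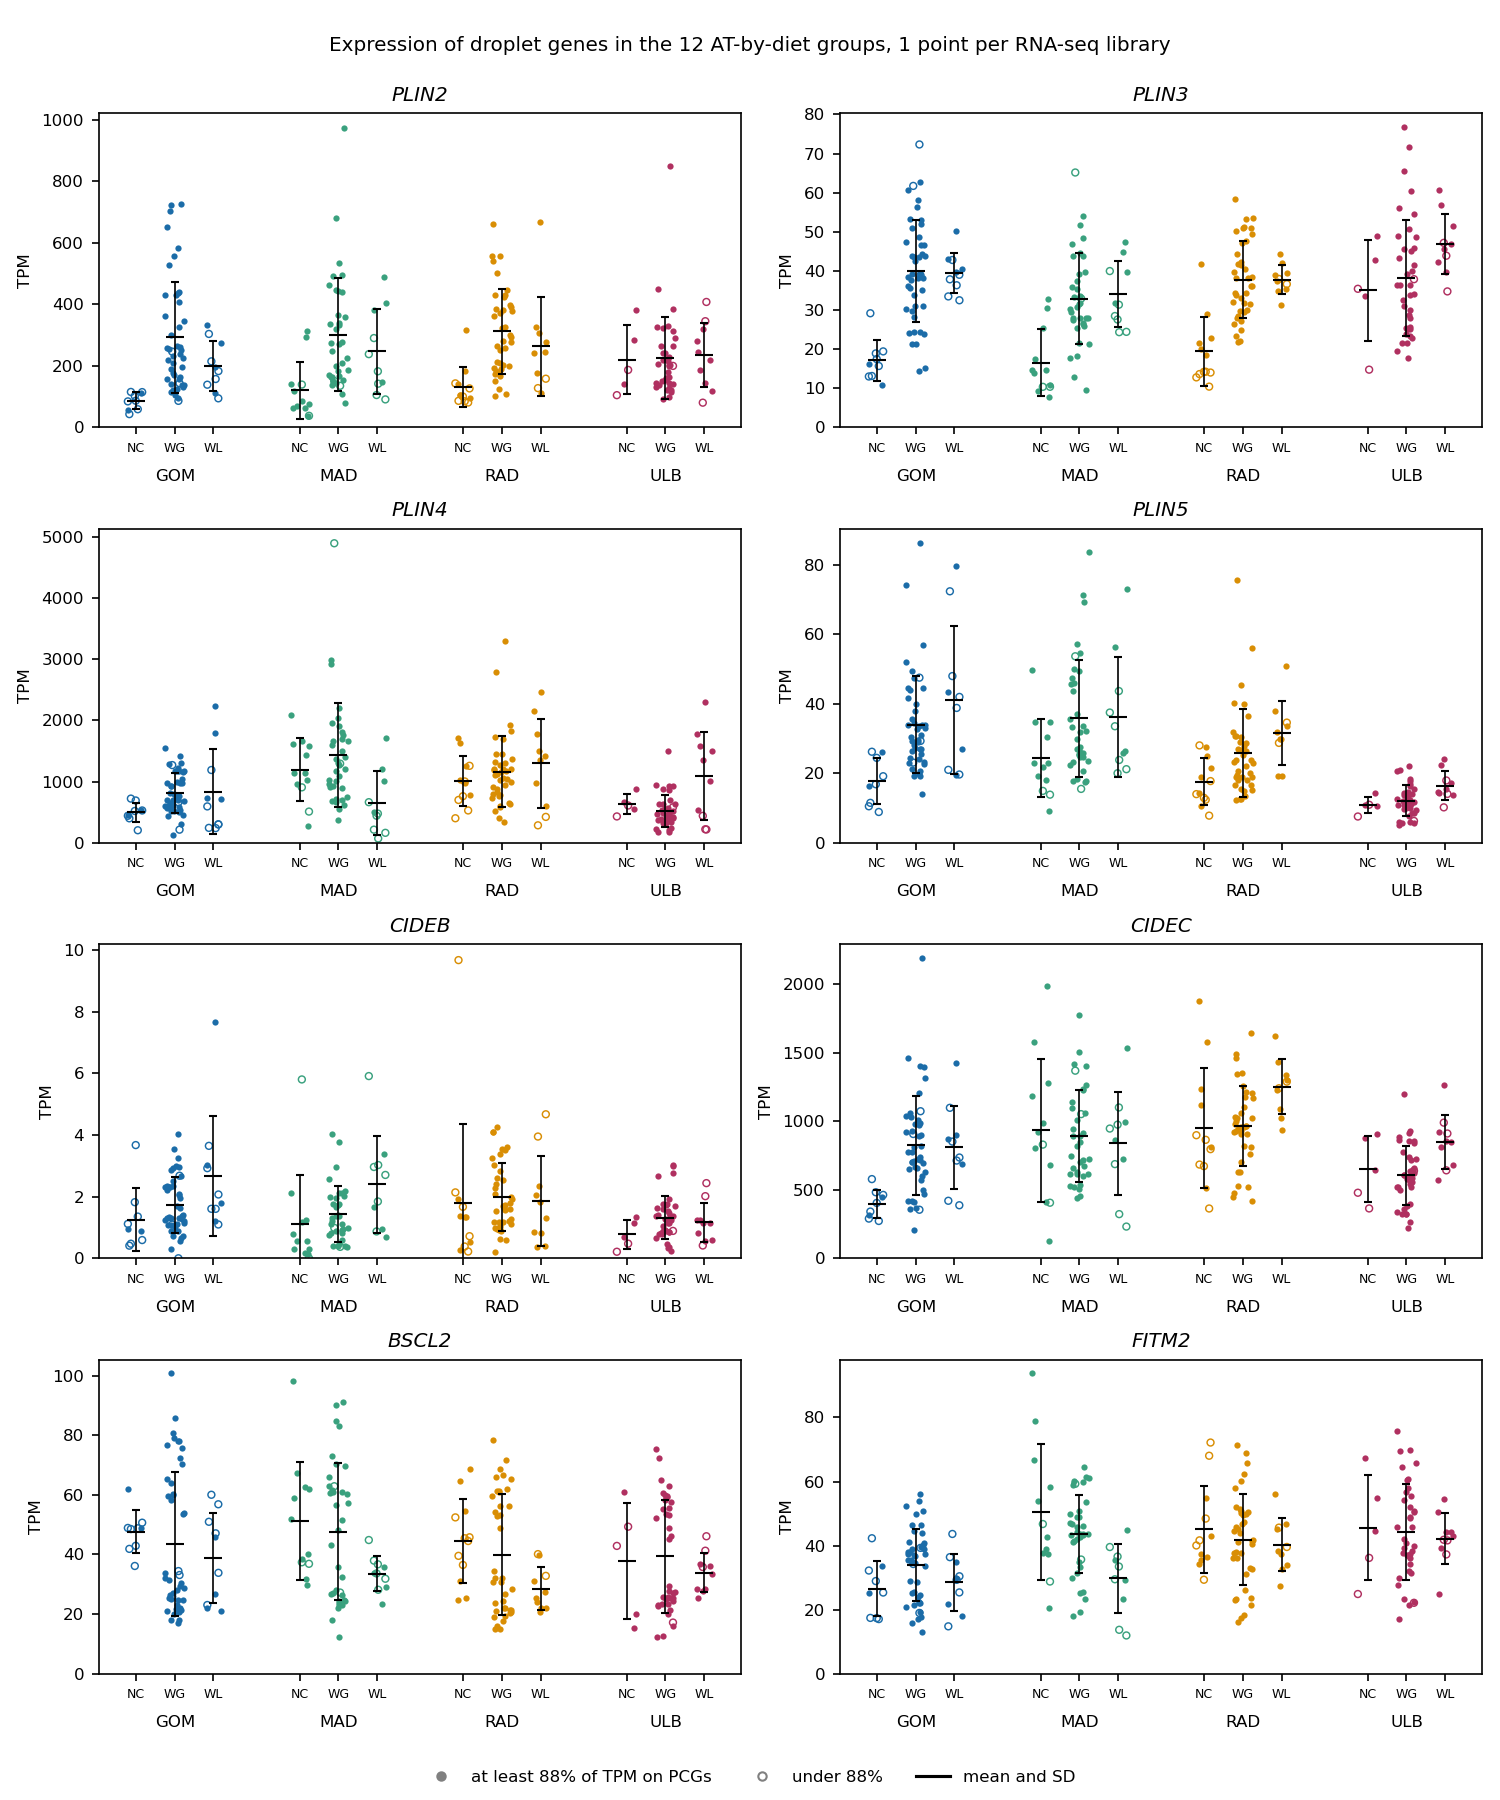
TPM of the 8 genes in every RNA-seq library (points) by AT and nutritional group, with the mean and SD in black and open points for libraries with under 88% of TPM on PCGs. PLIN2 and PLIN3 sit low in the 3 NC visceral groups, PLIN5 sits low in ULB in all 3 nutritional groups, and BSCL2 forms 2 clusters in each WG group.

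Weight gain was first compared with the normal diet in each AT. PLIN2, the general droplet coat protein that is degraded when no lipid covers it, and PLIN3, a cytosolic perilipin that moves to newly formed droplets, were higher in WG than in NC in all 3 VATs. CIDEC, which enlarges droplets by lipid transfer, and PLIN5, which ties droplets to mitochondria, were called higher in GOM and in no other AT. No member was called lower in any AT and none was called in ULB. In numbers, 4 of 8 members were called higher in GOM, where 12.2% of all PCGs tested were. MAD and RAD each had 2 of 8 (5.38% and 7.1% of PCGs), and ULB had 0 of 8 (0.507%). The shares of PCGs called lower were 14.5%, 5.29%, 9.6% and 1.87% in GOM, MAD, RAD and ULB. A call is an adjusted p below 0.05 by edgeR's quasi-likelihood test, over all PCGs tested, with a fold change above 1.5.

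PLIN2 ran from 42.8 to 115 TPM in NC GOM (median 86.3) and from 86.0 to 727 in WG GOM (median 237). Of the 45 WG GOM libraries, 41 lay above the highest NC library. In MAD it ran from 37.2 to 313 TPM in NC (median 81.4) and from 79.8 to 975 in WG (median 260), and in RAD from 80.6 to 316 (median 105) and 101.7 to 661 (median 294). The groups overlap in MAD and RAD, with 15 of 36 and 18 of 39 WG libraries above every NC library. The log2 fold changes of PLIN2 were 1.51 (SE 0.35, adjusted p = 0.00068) in GOM, 1.15 (SE 0.30, adjusted p = 0.0058) in MAD and 1.05 (SE 0.23, adjusted p = 0.00031) in RAD.

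PLIN3 ran from 10.8 to 29.2 TPM in NC GOM (median 16.3) and from 14.4 to 72.3 in WG GOM (median 39.02). In MAD the medians were 14.3 TPM in NC and 31.2 in WG, and in RAD 16.3 and 36.1. In WG, 43 of 45 GOM, 34 of 36 MAD and 39 of 39 RAD libraries lay above the NC median of their AT. The log2 fold changes of PLIN3 were 0.96 (SE 0.22, adjusted p = 0.00049), 0.81 (SE 0.18, adjusted p = 0.0014) and 0.78 (SE 0.15, adjusted p = 6.4e-05).

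In ULB the 5 NC libraries had 285.5, 187, 381, 104 and 142 TPM of PLIN2, against a range of 91.2 to 851 and a median of 201 in WG. Their PLIN3 values were 42.8, 14.7, 48.8, 35.4 and 33.5 TPM, against 17.8 to 76.9 and a median of 36.3 in WG. The NC and WG values of ULB overlap almost fully, and the log2 fold changes were -0.06 for PLIN2 and 0.01 for PLIN3. The difference between the responses of GOM and ULB was tested as an interaction in 1 fit of all 236 libraries. It was 1.62 for PLIN2 (SE 0.46, adjusted p = 0.029) and 0.99 for PLIN3 (SE 0.30, adjusted p = 0.040), and 3.88% of all PCGs were called in that contrast. Neither was called for MAD against ULB, where 0.883% of PCGs were, or for RAD against ULB (0.372%). With the replicate number as a block both were called in all 3 VATs, PLIN2 at 1.65, 1.58 and 1.32 (adjusted p = 9.4e-05, 0.0011 and 0.0042) and PLIN3 at 1.05, 0.99 and 0.92 (adjusted p = 3.4e-05, 0.00060 and 0.00069) in GOM, MAD and RAD, with 33.6%, 5.32% and 11.8% of PCGs called. By the rule that every pair must correlate above 0.1, the numbers paired ULB with MAD and RAD in WG but not in NC. With GOM, ULB passed in NC (4 pairs, median r = 0.14) but not in WG, where 37 of 38 pairs passed (median r = 0.64). In WG the same numbers also mostly share a side of the gap. Without the NC ULB library numbered 2, the GOM differences were 1.46 (adjusted p = 0.10) and 0.87 (adjusted p = 0.14), and without number 7 they were 1.32 (adjusted p = 0.18) and 0.83 (adjusted p = 0.19).

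The split of the libraries bears on these values. With the component as a term, PLIN2 was at 0.55 (adjusted p = 0.060) in GOM and no longer called, while in MAD it was 0.96 (adjusted p = 0.0012) and in RAD 0.83 (adjusted p = 0.00066). Among the libraries above the gap alone (9 NC against 18 WG in GOM, 9 against 19 in MAD, 9 against 17 in RAD), PLIN2 was higher in WG by 0.51 (adjusted p = 0.033), 1.04 (adjusted p = 0.0071) and 0.84 (adjusted p = 0.0085), the first below 1.5-fold. PLIN3 was higher by 0.37 (adjusted p = 0.090), 0.85 (adjusted p = 0.0021) and 0.42 (adjusted p = 0.013) there, so that on that side it was called in MAD alone. Among the libraries below the gap, with 3 NC libraries each, PLIN2 was at 0.73 in MAD and 0.86 in RAD without a call, and PLIN3 was at 0.37 in MAD and called in RAD at 0.82 (adjusted p = 0.014). With the component as a term PLIN3 was at 0.46 (adjusted p = 0.033), 0.69 (adjusted p = 9.2e-05) and 0.54 (adjusted p = 4.0e-05) in GOM, MAD and RAD, above 1.5-fold in MAD alone. With the component as a term, the interaction was 0.90 (adjusted p = 0.14) for PLIN2 in GOM and 0.59 (adjusted p = 0.082) for PLIN3 in GOM, and PLIN3 was called in MAD instead, at 0.79 (adjusted p = 0.0088). When the libraries under 88% were left out, 2 of the 8 diet calls held, PLIN2 and PLIN3 in MAD. That left 2, 10 and 6 NC libraries in GOM, MAD and RAD, so a lost call can also reflect the smaller groups.

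CIDEC rose in GOM from a median of 404 TPM in NC (273 to 578) to 775 in WG (209 to 2192), a log2 fold change of 0.78 (SE 0.25, adjusted p = 0.012). Its NC level in GOM was the lowest of all 12 groups, and in MAD, RAD and ULB its log2 fold changes were -0.21, -0.19 and -0.20. PLIN5 rose in GOM from a median of 16.9 TPM (8.87 to 26.2) to 30.5 (14.05 to 86.5), a log2 fold change of 0.63 (SE 0.20, adjusted p = 0.012). With the component as a term CIDEC was at 0.24 (adjusted p = 0.41), whereas PLIN5 was at 0.71 (adjusted p = 0.013) and at 0.72 (adjusted p = 0.017) among libraries above the gap. PLIN5 medians in NC and WG were 22.4 and 30.9 TPM in MAD, 16.03 and 23.2 in RAD and 10.8 and 11.8 in ULB. Above the NC median of their AT lay 29 of 36 WG MAD, 32 of 39 WG RAD and 25 of 38 WG ULB libraries. These changes were not called. The 5 adipocyte markers in the table (ADIPOQ, LEP, FABP4, PLIN1 and LIPE, with CIDEA not found) summed to 4544 to 7942 TPM in NC GOM, median 6820, against medians of 13351 to 16725 in the other NC groups, and NC GOM was also the group with the most libraries under 88%. Their part in the GOM results was not tested. PLIN4 had a median of 519.7 TPM in NC GOM (205 to 722) and 733 in WG GOM (132 to 1551), with a log2 fold change of 0.41 that did not pass. In the other ATs PLIN4 had log2 fold changes of 0.08 (MAD), -0.02 (RAD) and -0.40 (ULB). FITM2 was at -0.39 in MAD and -0.41 in RAD (adjusted p = 0.033, under 1.5-fold), and BSCL2 and CIDEB were not called.

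**Figure D3:**
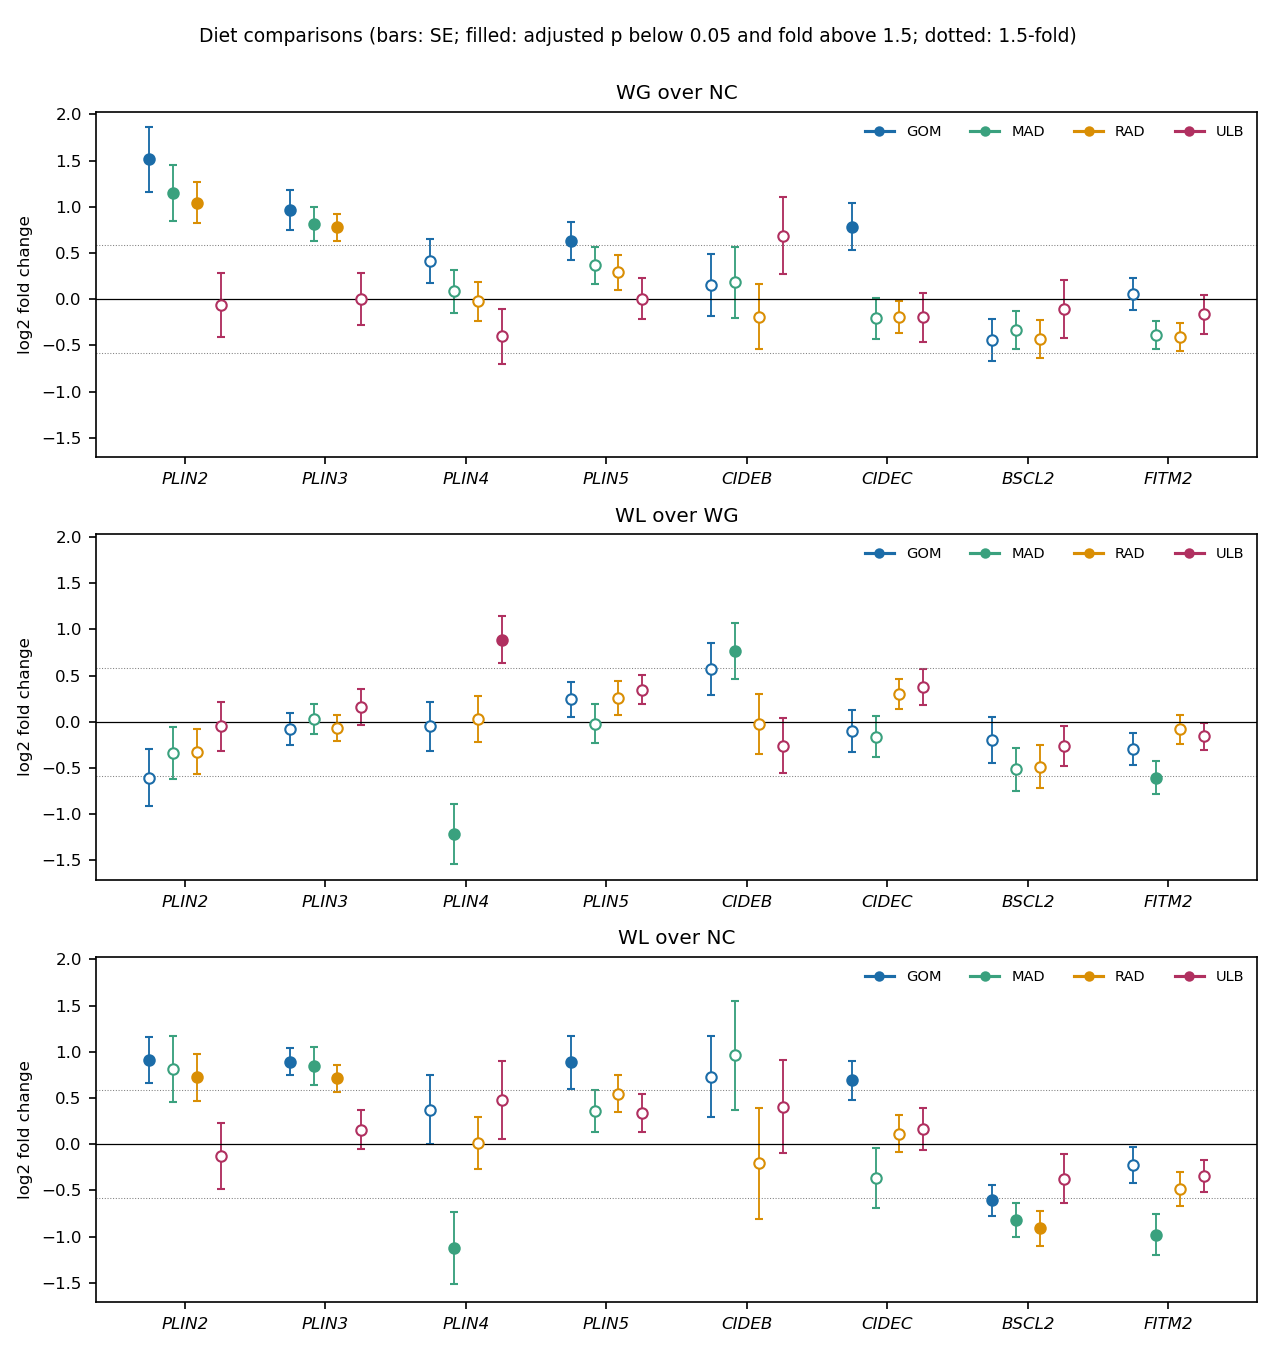
Log2 fold changes (points, edgeR) and SE (bars) of the 8 genes in WG over NC, WL over WG and WL over NC, by AT, with filled points for calls and dotted lines at 1.5-fold. PLIN2 and PLIN3 are high in the 3 VATs and near 0 in ULB in the upper panel, and PLIN4 in MAD is the lowest point of the middle panel at -1.21.

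Markers of macrophages were read beside PLIN2. Of CD68, CD163, MRC1, CSF1R, C1QA, TREM2, MSR1 and AIF1, 8 of 8 were called higher in WG than NC in MAD (5.38% of PCGs) and 5 of 8 in RAD (7.1%). In GOM, where PLIN2 had its largest fold change, this was 1 of 8 (MSR1), about the share of all PCGs there (12.2%). In ULB it was 0 of 8 (0.507%), and none was called lower. Their summed TPM had medians of 519 (308 to 917), 291 (138 to 498), 352 (140 to 619) and 416 (293 to 579) in NC for GOM, MAD, RAD and ULB, and 867 (351 to 1547), 704 (214 to 1174), 657 (260 to 1709) and 589 (262 to 881) in WG. Over the 196 libraries of at least 88%, with the mean of each group and side of the gap removed, PLIN2 had r = 0.62 with the macrophage sum and 0.21 with the adipocyte sum. PLIN3 had r = 0.23 and 0.11, and CIDEC had -0.29 and 0.34. These are descriptions over libraries that share the same pigs in part, and the part of macrophages in the PLIN2 result was not tested.

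Weight loss was compared with weight gain next. None of the 8 members was called in GOM or RAD, where 2.55% and 2.24% of PCGs were called higher and 2.71% and 4.13% lower. In MAD 1 of 8 was called higher (8.26% of PCGs) and 2 of 8 lower (9.17%), and in ULB 1 of 8 higher (3.22%) and 0 lower (4.9%). PLIN4, an abundant perilipin of white adipocytes that binds droplets through a long repeat, went in opposite directions: in MAD it fell by 1.21 on the log2 scale (SE 0.33, adjusted p = 0.0045) and in ULB it rose by 0.89 (SE 0.25, adjusted p = 0.010).

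PLIN4 in MAD ran from 376 to 4895 TPM in WG (median 1283) and from 70.3 to 1713 in WL (median 491). In ULB it ran from 172 to 1501 TPM in WG (median 459) and from 217 to 2300 in WL (median 1182). The groups overlap in both ATs, and the WL libraries are more spread. The difference between the MAD and ULB responses of PLIN4 was -2.07 (SE 0.39, adjusted p = 3.5e-05, with 6.96% of PCGs called in that contrast) and -2.16 (adjusted p = 3.1e-06) with the component as a term. Among the 4 WL MAD libraries of at least 88%, the mean was 1109 TPM against 647 ± 520 (SD, n = 10) for all 10. WL means of libraries of at least and under 88% were 1374 and 478 TPM in GOM, 1109 and 338 in MAD, 1532 and 354 in RAD, and 1437 and 293 in ULB. In that order 6, 6, 2 and 3 of the 10 WL libraries lay under 88%. The WG means of libraries of at least 88% were 820, 1332, 1163 and 516 TPM in the same order. Without the libraries under 88% the MAD change of PLIN4 was -0.40 (adjusted p = 0.58) and the difference from ULB -1.64 (adjusted p = 0.15). The share of TPM on PCGs thus moved with the MAD result, and whether it caused that result was not tested. Fits with the share, or with a term for libraries under 88%, gave fewer lower calls of WL against WG, as counted at the end.

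Markers of other cells moved with both PLIN4 changes. In MAD all 3 lymphocyte markers tested (MS4A1, CD79A and CD3E) were called higher in WL than WG, with a summed TPM of 18.8 to 436 in WL (median 25.3) and 9.21 to 224 in WG (median 21.6). There 3 of 4 stromal markers were called lower, with median sums of 1319 TPM in WL and 2034 in WG, and the adipocyte sum ran from 3454 to 16784 TPM in WL (median 14113) and from 10349 to 23714 in WG (median 15805). Of the adipocyte markers, LIPE was called lower in WL MAD and PLIN1 was not called. In ULB the adipocyte sum had a median of 20968 TPM in WL (15355 to 29797) and 14021 in WG (7694 to 30484), and 2 of its 5 markers were called higher, ADIPOQ and PLIN1 (0.69, adjusted p = 7.1e-06). The stromal sum in ULB had medians of 1705 TPM in WL and 2969 in WG, with COL1A1 called lower. Their part in the PLIN4 changes was not tested.

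FITM2, which helps triglyceride leave the ER into droplets, fell in MAD by 0.60 on the log2 scale (SE 0.18, adjusted p = 0.0081), from a median of 43.6 to 31.5 TPM. Without the libraries under 88%, 6 of the 10 in WL MAD, it was at -0.55 (adjusted p = 0.26) and not called. CIDEB rose there by 0.77 (SE 0.30, adjusted p = 0.047), from a median of 1.26 to 2.27 TPM, and was at 0.51 (adjusted p = 0.20) without the WL library numbered 4 and 0.06 (adjusted p = 0.95) without the libraries under 88%. PLIN2 had log2 fold changes of -0.60, -0.34, -0.32 and -0.05 in GOM, MAD, RAD and ULB, none called. Among libraries below the gap, which hold nearly all WL pigs, these were -0.90 (adjusted p = 0.059), -0.78 (adjusted p = 0.030), -0.56 (adjusted p = 0.094) and -0.47 (adjusted p = 0.17), so that PLIN2 was called lower after weight loss in MAD. With the component as a term it was called lower in GOM instead, at -0.73 (adjusted p = 0.0086). PLIN3 had log2 fold changes of -0.08 to 0.16 over the 4 ATs.

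Against the normal diet, 4 of 8 members were called higher in WL GOM (15.4% of PCGs) and 1 lower (20.7%), 1 higher in WL MAD (15.2%) and 3 lower (17.8%), 2 higher in WL RAD (10.2%) and 1 lower (16.6%), and none in WL ULB (5.39% and 9.37%). PLIN3 was higher in all 3 VATs, by 0.89, 0.85 and 0.71. Its 10 WL GOM libraries (32.5 to 50.1 TPM) all lay above the 9 of NC GOM (10.8 to 29.2), the only 1 of 240 comparisons of a member between groups in which the values did not overlap. The share of all PCGs without overlap in that comparison was not counted, so the lack of overlap cannot be read as particular to PLIN3. BSCL2 was lower in all 3 VATs, by -0.61, -0.82 and -0.91. These comparisons set mostly upper against mostly lower libraries. With the component as a term no member was called higher and PLIN4 in MAD (-1.43, adjusted p = 0.044) was the only one called lower. BSCL2 was then at 0.60, -0.26 and -0.33, none called. In GOM, where all 9 NC libraries lay above the gap and 8 of 10 WL libraries below, the diet and the split can hardly be told apart. PLIN2 in RAD was at 0.72 (adjusted p = 0.028), and at 0.44 (adjusted p = 0.11) without the WL library numbered 6.

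The ATs were compared within each nutritional group, in unpaired fits unless the replicate block is named. The SE and adjusted p of the unpaired fits take libraries that share a replicate number as independent. In WG those numbers paired ULB with MAD and RAD by the rule above (median r = 0.64 and 0.62). PLIN5 was the member that set ULB apart. In WG its range was 5.12 to 22.2 TPM in ULB (median 11.8), against 14.05 to 86.5 in GOM (median 30.5), 15.5 to 83.8 in MAD (median 30.9) and 12.2 to 75.6 in RAD (median 23.2). No WG ULB library exceeded the median of any VAT, and 26, 30 and 21 of the 38 lay below the lowest library of GOM, MAD and RAD. The log2 fold changes of ULB over GOM, MAD and RAD were -1.40 (SE 0.11, adjusted p = 5.4e-19), -1.51 (SE 0.13, adjusted p = 3.5e-17) and -1.07 (SE 0.12, adjusted p = 1.5e-11).

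Summed stromal markers (4 genes) had a median of 2969 TPM in WG ULB against 1999 to 2294 in the VATs. By mean TPM, COL1A1 was higher in WG ULB (1023 against 165 to 507). PDGFRA was lower there (71.2 against 90.7 to 141). DCN (1774 against 1340 to 1770) was about level with GOM, and LUM (316 against 308 to 362) lay within the VAT range. In WL the sum had medians of 1705 TPM in ULB and 2013, 1319 and 1624 in GOM, MAD and RAD. The part of these markers in the PLIN5 results was not tested.

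PLIN5 was lower in ULB in WL too, where it ran from 10.2 to 24.1 TPM in ULB and had medians of 40.4, 30.02 and 30.98 in GOM, MAD and RAD. The log2 fold changes were -1.34 (SE 0.25, adjusted p = 0.00028), -1.16 (SE 0.21, adjusted p = 0.00049) and -0.98 (SE 0.17, adjusted p = 0.00072). In NC the 5 ULB libraries had 14.4, 10.95, 10.7, 7.57 and 10.8 TPM, against medians of 16.9, 22.4 and 16.03 in the VATs. Here PLIN5 was called lower against GOM (-0.79, adjusted p = 0.044) and MAD (-1.14, adjusted p = 0.015) but not RAD (-0.78, adjusted p = 0.11). The GOM call was lost with the replicate number as a block over 4 pairs (-0.47, adjusted p = 0.31). PLIN5 in WG and WL was called under each tool, term and subset run, both sides of the gap included where they could be fitted.

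PLIN4, next to PLIN5 on the chromosome, was also lower in WG ULB, with log2 fold changes of -1.41 (SE 0.17, adjusted p = 4.7e-11) against MAD and -1.14 (SE 0.16, adjusted p = 6.0e-09) against RAD, and -0.56 against GOM (adjusted p = 0.0011, under 1.5-fold). In WL, by contrast, PLIN4 in ULB (217 to 2300 TPM) spanned the range of the VATs and was not called. PLIN4 was higher in MAD than in GOM in WG (0.84, SE 0.15, adjusted p = 1.4e-05) and in RAD than in GOM (0.59, SE 0.14, adjusted p = 0.00073), the latter under 1.5-fold by DESeq2 (0.57) and without the libraries under 88% (0.58). CIDEC was lower in WG ULB than in RAD, by 0.64 on the log2 scale (SE 0.13, adjusted p = 2.7e-05). In these WG comparisons 1 of 8 members was called lower in ULB against GOM (10.3% of PCGs), 2 of 8 against MAD (8.18%) and 3 of 8 against RAD (4.07%), and 1 of 8 was called higher in MAD over GOM (2.46%) and in RAD over GOM (4.11%). No member was called lower in MAD over GOM (3.81% of PCGs), higher in RAD over MAD (1.75%), or higher in ULB over GOM (7.59%), MAD (6.25%) or RAD (5.2%).

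In WL, PLIN5 and CIDEB were called lower in ULB than GOM (2 of 8, 9.81% of PCGs), PLIN5 alone against MAD (8.89%) and RAD (2.05%), and CIDEC higher in RAD than GOM (1 of 8, 4.07%). None was called higher in MAD than GOM (2.19%). CIDEC had medians of 794 TPM in WL GOM and 1266 in WL RAD, with a log2 fold change of 0.67 (SE 0.18, adjusted p = 0.012). CIDEB in ULB over GOM was at -1.16 (adjusted p = 0.028), and at -0.83 (adjusted p = 0.081) without the GOM library numbered 10. With the replicate block, which the check of pairs allows for RAD and MAD, RAD was also called above MAD for CIDEC (0.71, adjusted p = 0.026) and PLIN4 (1.22, adjusted p = 0.035).

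In NC, CIDEB did not pass the filter on low values in any comparison of ATs and 7 members were tested. GOM was the lowest AT for CIDEC, PLIN4 and FITM2, each called higher in MAD (3 of 7, 7.49% of PCGs) and in RAD (3 of 7, 9.89%), and none was called lower in RAD (9.59%). CIDEC had medians of 404, 877, 838 and 643 TPM in GOM, MAD, RAD and ULB, PLIN4 had 519.7, 1144, 990.5 and 609 TPM, and FITM2 had 25.4, 44.8, 40.8 and 44.6 TPM. The log2 fold changes over GOM were 1.13 and 1.25 for CIDEC, 1.15 and 1.01 for PLIN4 and 0.85 and 0.82 for FITM2, in MAD and RAD. PLIN1 was lowest in the same group, with a mean of 451 ± 71.0 TPM (SD, n = 9) against 948, 1006 and 767 TPM. ULB over GOM had 4 of 7 members higher (13.3%) and 1 lower (12.1%), with PLIN2 at 1.28 (adjusted p = 0.0039) and PLIN3 at 0.98 (adjusted p = 0.0092). With the replicate block PLIN2 was at 1.54 (adjusted p = 0.0035), while PLIN3 (0.82, adjusted p = 0.13), CIDEC (0.49, adjusted p = 0.12) and FITM2 (0.65, adjusted p = 0.091) were no longer called. ULB over MAD had PLIN3 higher (1.13, adjusted p = 0.022, 1 of 7 with 4.57% of PCGs) and PLIN5 lower (1 of 7, 3.17%), and PLIN3 was not called without any 1 of the ULB libraries 2, 7 or 9 (adjusted p = 0.069, 0.089 and 0.052). In RAD over MAD none of 7 was called (0.509% of PCGs higher, 1.9% lower), and in ULB over RAD none of 7 (2.92% and 1.4%). When the libraries under 88% were left out, 2 of the 13 NC calls held, PLIN3 in ULB over GOM and over MAD, and 11 of the 13 set an AT against GOM. Only 2 NC GOM libraries were then left.

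**Figure D4:**
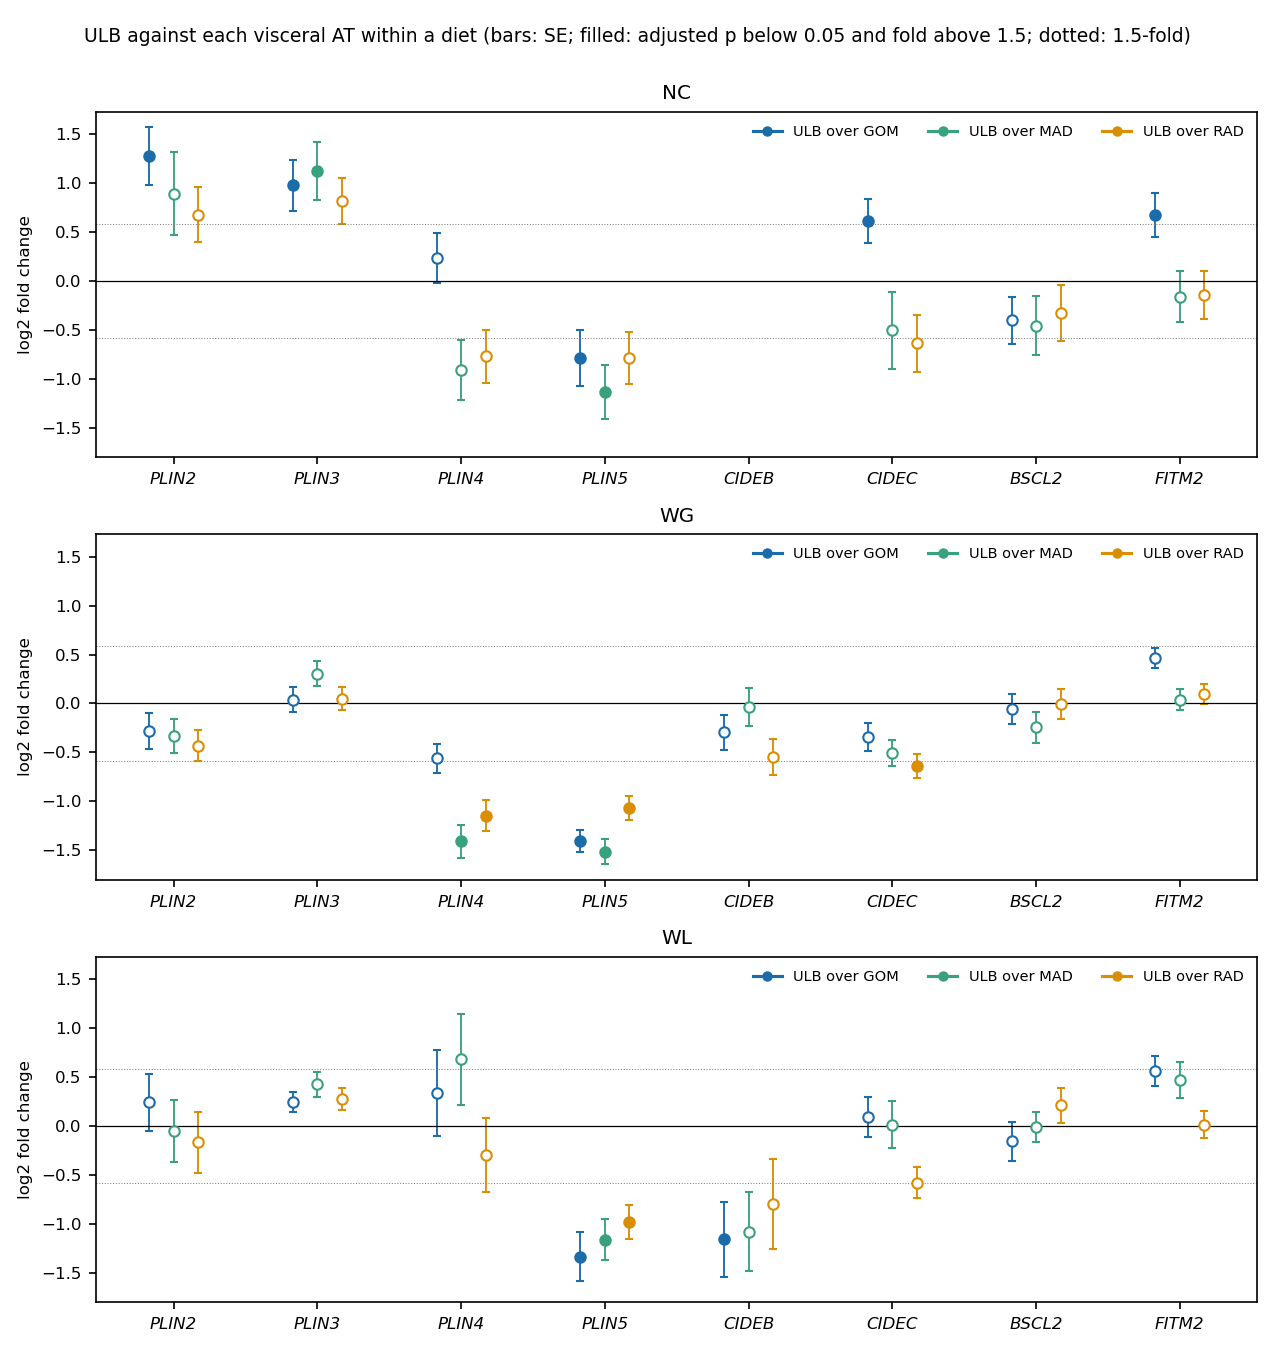
Log2 fold changes (points, edgeR) and SE (bars) of the 8 genes in ULB over each VAT within NC, WG and WL, with filled points for calls and dotted lines at 1.5-fold. PLIN5 is at -0.78 or lower in all 9 comparisons and called in 8 of them, and PLIN4 is low in WG and scattered around 0 in WL.

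The members were set beside other genes of droplet metabolism. Of 22 other droplet proteins, 17 were tested, and in WG over NC 2 were higher and 1 lower in GOM, none in MAD or ULB and 1 higher in RAD. Of all PCGs, 12.2% were higher and 14.5% lower in GOM and 7.1% higher in RAD, so these counts are near or below the background. HILPDA, a small inhibitor of the lipase PNPLA2, was higher in WL than NC in all 4 ATs, with log2 fold changes of 1.22 to 1.92. RAB7A, a GTPase of late endosomes and droplet turnover, was lower in WL than NC in all 4 ATs, by -0.76 to -1.16. EHD2 was lower and CAVIN1 higher in 3 of 4 ATs in that comparison.

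Among 7 lipases and regulators tested, 3 were called higher with weight gain in GOM (12.2% of PCGs) and 1 in each of MAD (5.38%) and RAD (7.1%). PNPLA3, an acyl hydrolase of droplets, was called higher in WG than NC in the 3 VATs (0.71 to 1.05) and lower in WL than WG in 3 of 4 ATs (-1.01 to -1.21, with RAD at -0.85 and not called). It was also higher in ULB than in every VAT in all 3 nutritional groups, with log2 fold changes of 1.69 to 2.80, the reverse of PLIN5. G0S2, another inhibitor of PNPLA2, rose from WG to WL in 3 of 4 ATs (1.45 to 1.95, with GOM at 0.84 and not called). PNPLA2, the first lipase of triglyceride breakdown, was lower in WL than NC in the 3 VATs (-0.86 to -1.28). LIPE, which follows it, was higher in RAD than GOM in all 3 groups (0.63 to 1.19).

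Among 9 genes of triglyceride synthesis tested, 4 were higher and 1 lower in GOM with weight gain (12.2% and 14.5% of PCGs), and LPIN1, a phosphatidate phosphatase, was lower in all 3 VATs, with log2 fold changes of -0.84 to -1.13. DGAT2, which makes the triglyceride, was lower in WL than WG in 3 of 4 ATs (-1.51 to -2.16, with RAD at -1.02 and not called). GPAT4 was higher in ULB than GOM in all 3 groups (0.62 to 1.15). Of 8 regulators, 3 were higher and 1 lower in GOM (12.2% and 14.5% of PCGs), 0 called in MAD and ULB and 1 lower in RAD (9.6%) with weight gain. PPARG, the main adipocyte transcription factor, was lower in WL than WG in the 3 VATs (-0.60 to -0.77) and lower in WL than NC in all 4, as were SREBF1 and PPARA. The lists were written for this work, and the calls of WL against NC share the confounding with the split given above.

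Genes whose pattern was most like a member were sought over the 196 libraries of at least 88%, with the group mean removed, among 12311 genes. For PLIN2 these were GLA (r = 0.83), CD53 (0.82) and CTSS (0.81). With the mean of each side of the gap removed too, CCR1 (0.77) and MSR1 (0.76) were among the most alike, and PLIN1 had r = -0.44 with PLIN2. For PLIN4 they were TMEM43 (0.71), REXO4 (0.70) and PIGS (0.66), with TMEM43 first again within sides (0.73). For CIDEC they were ETFDH, GPX4 and SLC25A17 (0.81, 0.81 and 0.80), with ETFDH first again within sides (0.69). Among the members, the r of BSCL2 with PLIN2 was -0.57 over groups and -0.13 within sides, and that of CIDEC with BSCL2 turned from -0.47 to 0.21. The r of PLIN4 with PLIN5 was 0.47 and 0.54, and with FITM2 0.30 and 0.54. All of these are descriptions over libraries that share pigs and depth.

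The A-B index, a score without a unit that is positive in the open compartment A and negative in compartment B, was read in the 20-kb bin of each gene start in 240 Hi-C libraries. PLIN4 and PLIN5 share a bin, so 7 bins were read. All were above 0 on average in all 12 groups. BSCL2 lay highest, with group means of 6.24 to 6.71, above 98.2% to 99.1% of the 11310 bins that hold a gene start. PLIN4 and PLIN5 had 5.32 to 5.90, CIDEC 4.24 to 5.74 and FITM2 1.21 to 2.08, and the FITM2 bin exceeded at most 37.5% of gene-start bins. In NC the bin of PLIN4 and PLIN5 had its highest mean in ULB (5.90 ± 0.54, SD, n = 5), the AT where PLIN5 expression was lowest, but no difference between ATs was called for it.

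Between diets, 25 values were called over the 12 comparisons, and in all 25 the index was higher in WG or WL than in NC, or in WL than in WG. A call needed a difference of more than 0.75 and, by limma over 113298 bins, an adjusted p under 0.05. In WG over NC these were PLIN2 and CIDEC in GOM (2.79% of bins called in either direction), PLIN2, CIDEB and CIDEC in MAD (4.47%) and RAD (4.32%), and CIDEB and CIDEC in ULB (6.15%). The mean of PLIN2 in GOM was 2.17 ± 0.64 (SD, n = 9) in NC and 3.04 ± 0.67 (n = 46) in WG. In MAD the corresponding means were 2.71 ± 0.48 (n = 12) and 3.82 ± 0.74 (n = 37), and in RAD 2.86 ± 0.52 (n = 12) and 4.07 ± 0.89 (n = 40). CIDEB, whose expression was not called in any AT in WG over NC, rose by 1.15 in MAD and 1.09 in RAD. CIDEC rose by 0.81 to 0.95 in the 4 ATs, whereas its expression was called in GOM alone.

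In WL over NC, PLIN2, PLIN3, CIDEB and CIDEC were called in each VAT (10.1%, 11.2% and 15.8% of bins in GOM, MAD and RAD) and CIDEB and CIDEC in ULB (13.6%). PLIN2 reached 3.42, 4.42 and 4.64 in WL GOM, MAD and RAD. In WL over WG the only call was FITM2 in ULB, from 1.21 to 1.97 (9.96% of bins), with none in GOM, MAD or RAD (2.53%, 1.01% and 3.83%). The index of gene-start bins shifted as a whole, with a median difference of 0.19 to 0.28 in WG over NC and 0.25 to 0.41 in WL over NC. After quantile normalization between the samples 12 of the calls remained, among them PLIN2 and CIDEB in MAD and RAD in both comparisons. The NC ULB values rest on 5 libraries, and without number 9 none of the 4 ULB calls against NC held, and without number 5 only 1 (CIDEB in WL).

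Between ATs, 6 values were called over 18 comparisons. PLIN2 was higher in MAD and RAD than in GOM in WG (by 0.77 and 1.02, with 6.27% and 12% of bins called) and in WL (by 0.99 and 1.22, with 13% and 17.7%). PLIN3 was higher in NC ULB than in GOM (0.85, with 20.5% of bins) and RAD (0.85, with 14.9%). The PLIN2 bin was lowest in GOM in each nutritional group, although its WG expression did not differ by call between GOM, MAD and RAD.

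**Figure D5:**
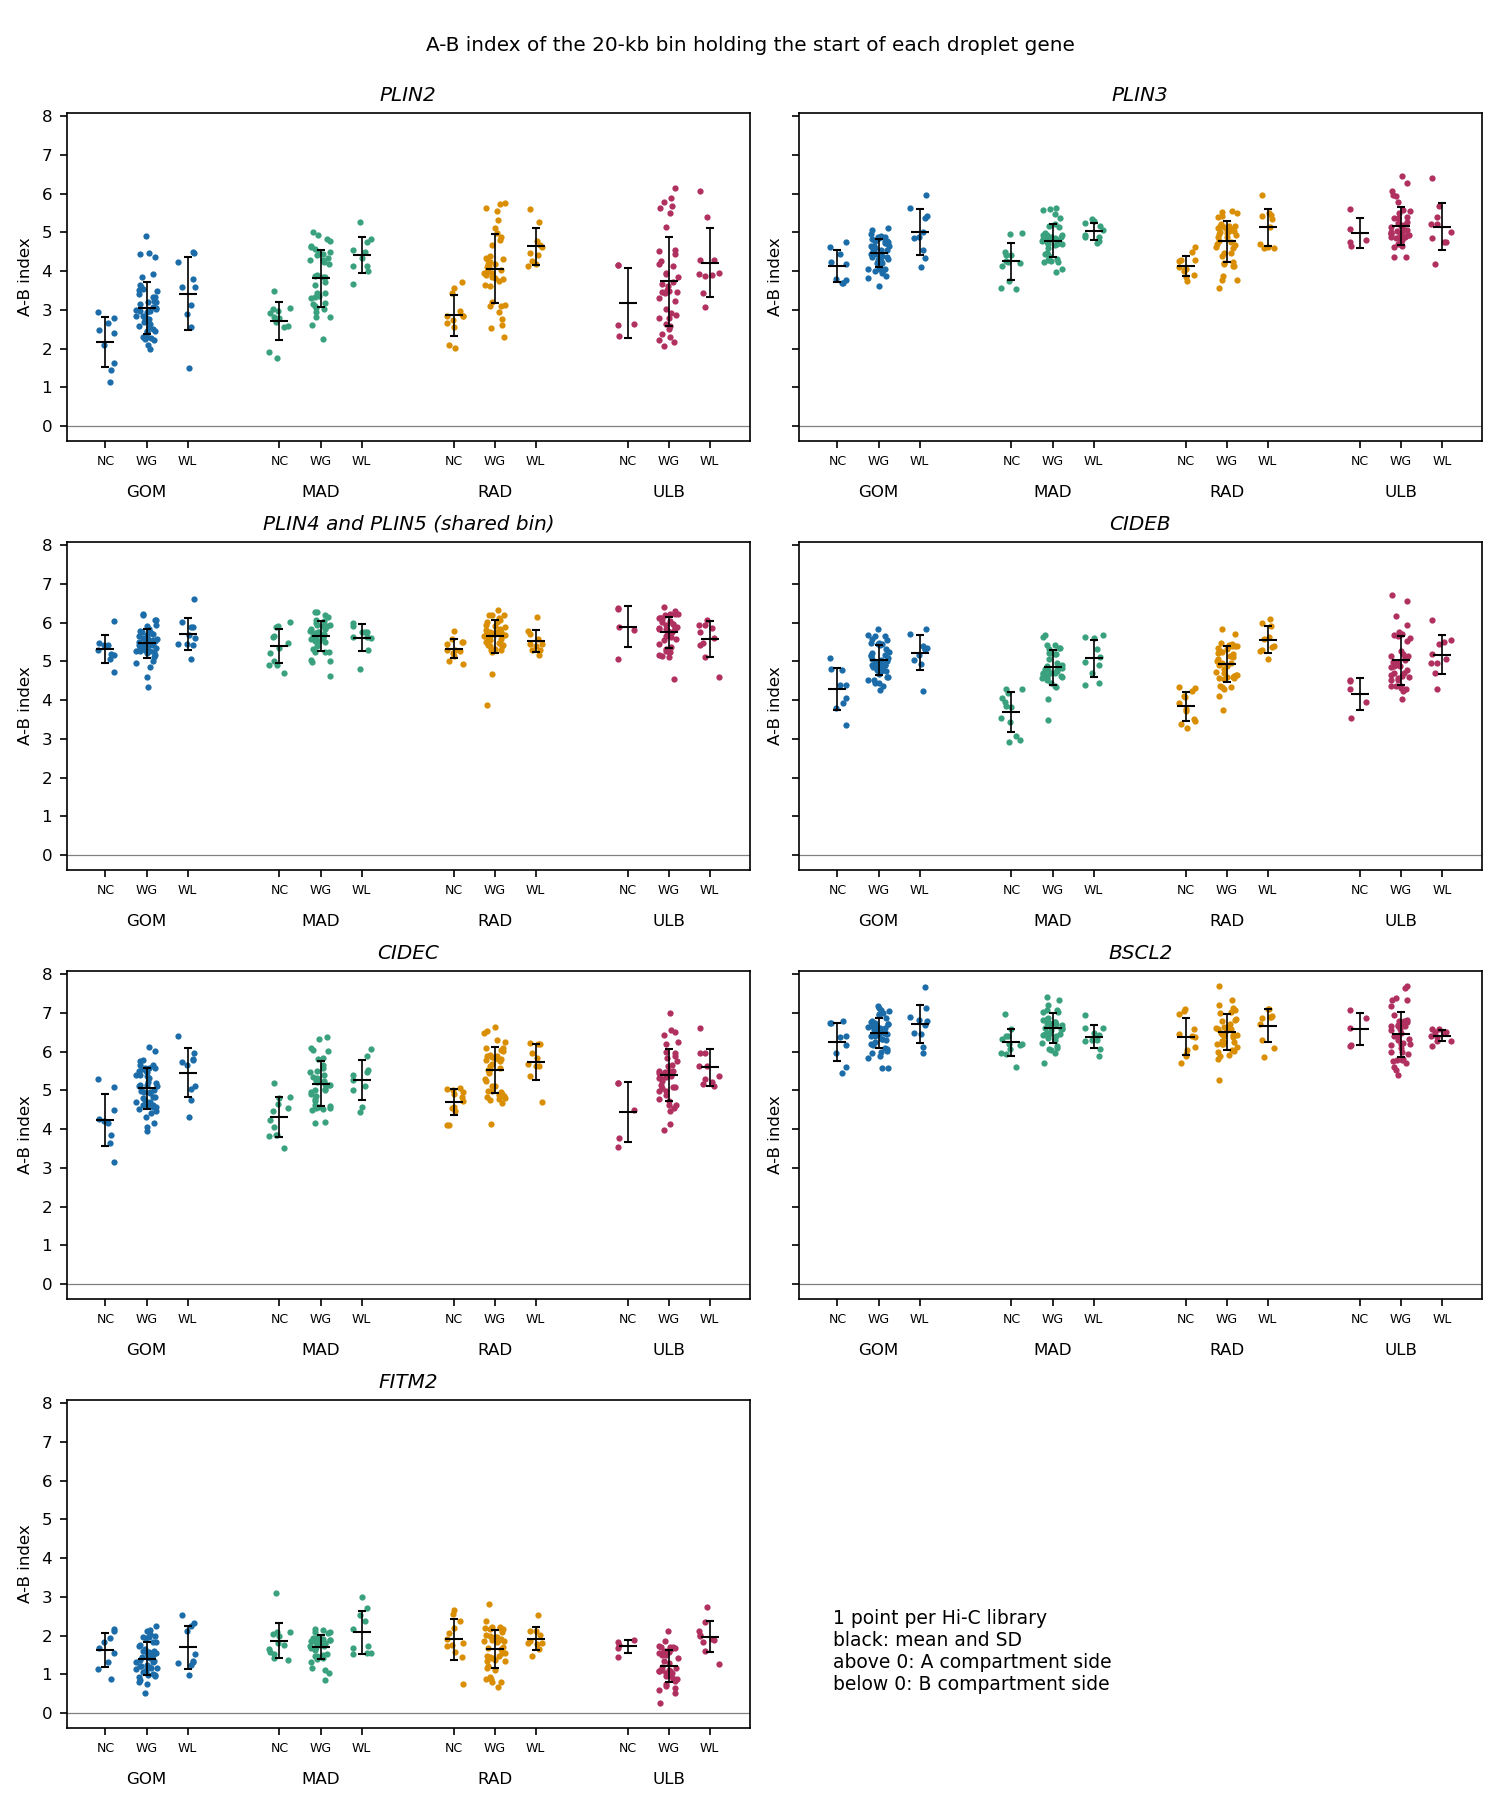
A-B index of the 20-kb bin at each gene start in the 240 Hi-C libraries (points) by AT and nutritional group, with the mean and SD in black. The bins of PLIN2, CIDEB and CIDEC sit lower in NC than in WG and WL in the VATs, and BSCL2 is near 6 or above in every group mean.

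H3K27ac, a mark of active promoters and enhancers, was available as 18 tables of enhancer regions pooled by the authors over 1 to 11 samples of a group or subgroup, so no test was made. A region lay within 10 kb of the member in 140 of the 144 pairs of gene and table. PLIN4 and PLIN5 fell into the same region in 17 of 17 tables that covered both, and that region carried no super-enhancer mark in any table. BSCL2 was marked as super-enhancer in 9 tables, CIDEC in 6, PLIN2 and CIDEB in 4 each, PLIN3 in 2 and FITM2 in none. Of all regions, 1.98% to 6.79% were marked per table, and 4.51% to 5.84% in the NC tables. The share of all genes within 10 kb of a marked region was not counted, so these marks cannot be read as particular to the members. All 4 NC tables marked CIDEB, CIDEC and BSCL2, and no WG table marked CIDEB. The BSCL2 region in NC was 236800 to 394600 bp long and ranked in the top 0.0409% to 0.174% of regions by signal. In the WG and WL tables that marked it, the region was 25200 to 36800 bp long and in the top 2.14% to 5.85%. The NC regions of CIDEB (193000 to 224400 bp) and CIDEC (82400 to 247200 bp) also extend far beyond each gene, so that these marks cover many neighbours. PLIN2 was marked in NC MAD, RAD and ULB and in WL MAD (top 1.43% to 4.32%).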

How the data were processed

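RNA-seq of 236 libraries and in situ Hi-C of 240 were used, grouped by the nutritional state and AT in the labels. The authors quantified stranded, rRNA-depleted libraries with kallisto (0.43.0 per the submitters' processing notes) and deposited estimated counts and TPM per gene. They also deposited the A-B index, a score per 20-kb bin normalized between samples, and H3K27ac signal over enhancer regions from pooled reads (BWA 0.7.15, SAMtools 1.3.1, SICER) on Sscrofa11.1. In each of the 3 tables (TPM, counts and index), 9 columns without a label were not used, and topological domain calls were not used.

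Estimated counts were rounded and tested with edgeR 4.0.16 (quasi-likelihood, TMM, Benjamini-Hochberg adjustment, R 4.3.3) over all PCGs for which 80% or more of the libraries in either group exceeded 0.5 TPM. Only the 2 groups compared entered a fit, except for interactions, fitted over all libraries and called at an adjusted p below 0.05 alone. A call otherwise also needed a fold change above 1.5. The index was tested with limma 3.58.1. Alternatives were DESeq2 1.42.0, limma on log2(TPM + 1) or log2(TPM + 0.1), no filter, a term for libraries under 88% or their exclusion, a block for the replicate number, and NC ULB without each library in turn. Terms for the share of TPM on PCGs and for the first principal component, fits on either side of its gap and fits without a library that stood apart were chosen after seeing the data. Scripts were tested on simulated data. Figures and descriptions used Python 3.11.15 with pandas 2.3.3, numpy 2.4.6, scipy 1.17.1 and matplotlib 3.10.9.

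All 8 members are named, with PLIN1 and CIDEA. From the lists of other droplet proteins, lipases, triglyceride synthesis and regulators, genes called in 1 direction in at least 3 of 4 ATs, or in all 3 nutritional groups for a pair of ATs, were named, at most 4 per list and comparison type by median fold change, and for likeness the 3 genes of highest correlation. Members and lists were chosen with earlier results of these data known. Replicate numbers were taken to pair samples where every pair of deviations from the group means correlated above 0.1. This was so in 4 of the 18 AT comparisons, NC ULB with GOM, WG ULB with MAD and with RAD, and WL RAD with MAD. The rule is easier to meet with few pairs. In WG, MAD with GOM did not meet it with 35 of 36 pairs above 0.1, nor RAD with GOM with 37 of 39. The precision of a value is limited by the number of libraries and, for CIDEB, by its low counts. A gene among those most like PLIN2 is not reported here.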

Additional observations from a re-analysis of the deposited data

Results flagged for a closer look

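In 5 of 90 sets of values for a member in a group, 1 library stood apart from the others of its group by Dixon's criterion, which chance does in about 1 in 20. PLIN2 was 667 TPM in the WL RAD library numbered 6, where the next was 326 TPM. PLIN3 was 29.2 TPM in the NC GOM library numbered 9, where the next was 19.4 TPM, and without it PLIN3 was still called higher in WG GOM (1.08), WL GOM (1.03) and NC ULB (1.11) than in NC GOM. CIDEB was 3.67 TPM in the NC GOM library numbered 8 (next 1.82), 7.68 TPM in the WL GOM library numbered 10 (next 3.65) and 5.91 TPM in the WL MAD library numbered 4 (next 3.38).

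Of 48 tests of a difference between the diet response of a VAT and that of ULB, 3 passed. From NC to WG the log2 response in GOM exceeded that in ULB by 1.62 for PLIN2 and by 0.99 for PLIN3, and from WG to WL the response of PLIN4 in MAD differed from that in ULB by -2.07. None of the 3 passed without the libraries under 88%, where the differences were 2.033, 1.597 and -1.644. Those fits kept 2 NC GOM, 3 NC ULB, 4 WL MAD and 7 WL ULB libraries.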

How the results depend on the processing

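DESeq2 kept 49 of the 50 single calls of members. The split on the first component and the share of TPM on PCGs moved the counts most, and the cause was not tested. BSCL2 in WL GOM over NC GOM turned from -0.61 to 0.60 with the component as a term, a fit in which the component and the diet largely coincide. For WG over NC, the 8 higher calls became 2 without libraries under 88%, 4 with the component as a term, 4 on its upper side and 1 on its lower side, and the 0 lower calls became 2 with the share of TPM as a term. GOM, with 4 of the 8 higher calls, could not be fitted on the lower side. For WL over WG, the 2 higher calls became 1 with no filter, with limma at either pseudocount, with the low-library term, without libraries under 88%, with the share term and with the component, and 0 on the lower side. The 2 lower calls became 1 with limma on log2(TPM + 1), with the low-library term and with the share term, and 0 without libraries under 88%. For WL over NC, the 7 higher calls became 11 with limma at either pseudocount, 3 without libraries under 88% and 0 with the component and on either side, and the 5 lower calls became 3 with limma, 1 with the component and 0 on either side. In this comparison GOM could not be fitted on the lower side, and on the upper side only GOM could, with 2 WL libraries. Between ATs in NC, the 11 higher calls became 7 with the low-library term, the share term, the component or its upper side, 2 without libraries under 88% and 0 on the lower side. On the lower side no comparison with GOM was fitted, and most of these calls set an AT against GOM. The 2 lower calls became 4 with DESeq2, 1 with no filter, with limma, with the share term and with the replicate block, 5 with the component and 0 without libraries under 88% and on either side. Between ATs in WG, the 2 higher calls became 1 with DESeq2, with limma, with the low-library term and without libraries under 88%, and the 6 lower calls became 10 on the upper side. Between ATs in WL, the 1 higher call became 2 with limma on log2(TPM + 0.1), 3 with the low-library or share term and 4 with the replicate block. Differences of diet response higher in a VAT went from 2 to 9 with the replicate block, 1 with the component and 0 without libraries under 88%, and the 1 lower went to 3 with the block and 0 without libraries under 88%. Higher A-B index calls between diets went from 25 to 12 after quantile normalization, and those between ATs from 6 to 10 with a difference above 0.5. Leaving out each NC ULB library in turn gave 2 to 6 higher calls (5 with all) and 1 to 2 lower calls between NC ATs, 0 to 3 differences of diet response, 0 to 4 index calls between diets and 0 to 6 between ATs. Where the numbers were not shown to pair the samples, the block is a shared number alone. Fits on 1 side of the gap were not possible for 17 comparisons, because fewer than 2 libraries were left in a group. CIDEB values rest on a median of 19.5 counts, so small differences were not detectable at this depth.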
